A study of Mus musculus with 56 samples.

Results

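The PAR bZIP factors and their antagonist NFIL3 were followed through the day in mouse liver under inverted feeding. The 4 genes are Dbp, Tef, Hlf and Nfil3, out of 25415 genes in the deposited table. They were chosen by name as a gene family and not by a rule on their values, but with earlier results of these data known. All 4 were among the 25041 genes that could be tested. The animals were C57BL/6J females, 9 weeks old at sampling, kept for 7 days on either of 2 feeding regimens in a cycle of 12 h light and 12 h dark. Under daytime-restricted feeding (DRF), food was given from lights on (zeitgeber time 0, ZT0) to lights off (ZT12). Under nighttime-restricted feeding (NRF), which served as the reference, food was given from ZT12 to ZT24. Livers were taken every 4 h from ZT0 to ZT24, with 4 animals at each time in each regimen, so that 56 RNA-seq libraries fell into 14 groups, 28 libraries per regimen. Every group was food-restricted and no group fed ad libitum was analysed here. Each value is from whole liver, in which fewer cells of a type and less RNA per cell cannot be told apart.

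DBP, TEF and HLF are transcription factors with a proline- and acidic-amino-acid-rich (PAR) domain beside their basic leucine zipper. They bind as homo- or heterodimers to the D-box, a short palindromic element, and activate transcription from it. NFIL3, also called E4BP4, binds the same element through a related leucine zipper but lacks the PAR domain and represses. In the core clock, CLOCK and BMAL1 drive Dbp through E-boxes, while REV-ERB and ROR receptors act on Nfil3, so that activators and repressor of D-box genes are made at opposite times of day. In liver the family is known for setting daily rhythms of drug- and lipid-metabolising enzymes.

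Values are given as scaled counts, which were rebuilt from the deposited expression values and are linear in the counts behind them. No correction for gene length enters them, and levels are compared between genes only per kb of exon. Recovered counts over the genes tested ranged from 137.4 to 313.1 per library in units of 1e6, and 1 scaled count stood for 304 to 723 of them. These recovered counts are a unit of the table and are not known to be reads. The 4 genes rested on at least 125 recovered counts in every library, a minimum reached by Dbp under NRF. Libraries of the same group correlated at 0.958 to 0.988 over 13383 genes, and no pair of libraries held identical values. All 8 hepatocyte markers were above 0 in every library, with a summed deposited value of 2447 to 2671 under DRF and 2423 to 2851 under NRF. The 6 Kupffer cell, 5 sinusoidal endothelial, 5 stellate, 5 cholangiocyte, 7 lymphocyte and 3 erythroid markers were also above 0 in every library, and so were the 3 of 4 neutrophil markers found in the table. Summed lymphocyte markers ran from 43.6 to 148 under DRF and from 42.4 to 128 under NRF, and summed neutrophil markers from 46.0 to 115 and from 29.9 to 140. Their part in the results was not tested.

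The promoters of the 4 genes were searched first, because E-boxes, D-boxes and ROR core sites are the elements through which the clock reaches this family. The RefSeq table for GRCm38.p6 held 5 promoters for the 4 genes, 2 of them for Tef, each running from 250 bases before the start to 50 bases after it. The letters searched, on both strands, were CACGTG for the E-box, TTANGTAA for the core of the D-box and AGGTCA for the ROR core site, none of which overlapped another in these windows. Among all 32851 promoters in the table, 7.15% held the E-box, 2.32% the D-box core and 16.3% the core site. Both Tef promoters held 1 E-box, and the Nfil3 promoter held 1 core site. The Dbp window (chr7:45704997-45705296, plus strand) and the Hlf window (chr11:90390868-90391167, minus strand) held none of these letters, which says only that they are not in these windows. The 3 promoters with a match are shown 5′ to 3′ with the match in capitals: Tef promoter 1 lies at chr15:81802423-81802722 and Tef promoter 2 at chr15:81811164-81811463, both on the plus strand, and the Nfil3 promoter lies at chr13:52980990-52981289 on the minus strand.
Tef promoter 1: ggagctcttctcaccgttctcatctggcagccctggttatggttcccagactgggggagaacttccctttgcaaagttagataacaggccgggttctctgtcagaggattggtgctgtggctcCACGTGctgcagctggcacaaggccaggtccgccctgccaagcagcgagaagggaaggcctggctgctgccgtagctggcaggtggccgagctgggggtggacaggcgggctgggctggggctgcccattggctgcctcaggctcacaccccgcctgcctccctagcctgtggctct
Tef promoter 2: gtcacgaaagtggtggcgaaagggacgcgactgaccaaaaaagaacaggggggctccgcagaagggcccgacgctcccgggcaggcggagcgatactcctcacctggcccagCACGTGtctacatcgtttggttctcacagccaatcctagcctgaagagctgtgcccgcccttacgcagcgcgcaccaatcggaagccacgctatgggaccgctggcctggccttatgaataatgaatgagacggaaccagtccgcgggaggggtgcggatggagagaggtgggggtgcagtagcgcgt
Nfil3 promoter: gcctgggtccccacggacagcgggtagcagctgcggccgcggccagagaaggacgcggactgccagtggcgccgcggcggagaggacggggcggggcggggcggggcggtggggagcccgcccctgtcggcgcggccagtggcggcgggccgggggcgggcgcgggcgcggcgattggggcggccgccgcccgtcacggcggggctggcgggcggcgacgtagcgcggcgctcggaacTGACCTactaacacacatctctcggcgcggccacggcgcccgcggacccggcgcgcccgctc
The E-box began at base 124 of the first Tef promoter and base 113 of the second, 127 and 138 bases before the start. The core site of Nfil3 was read on the opposite strand, as its reverse complement, and began at base 239, only 12 bases before the start. A match is a description of the letters and not evidence of binding.

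Dbp (ENSMUSG00000059824), a strongly rhythmic output gene of the clock, lies at chr7:45705088-45710203 on the plus strand of GRCm38.p6 and has 5 annotated transcripts over 2993 bases of exon. Under NRF, the 4 livers at ZT12 held 45.7, 59.9, 39.96 and 43.6 scaled counts and the 4 at ZT0 held 0.505, 0.410, 0.251 and 0.260. The highest group mean, 47.3 ± 8.73 (SD, n = 4) at ZT12, was 133-fold above the lowest, 0.357 ± 0.123 at ZT0. Under DRF, the livers at ZT0 held 35.2, 42.1, 39.8 and 38.5 scaled counts and those at ZT16 held 1.08, 1.97, 2.22 and 3.22. The swing was shallower, 18.3-fold, from 2.12 ± 0.88 at ZT16 to 38.9 ± 2.90 at ZT0. The highest groups of the regimens overlapped, whereas the lowest did not, since all 4 DRF livers at ZT16 lay above all 4 NRF livers at ZT0. The way down also differed in pace. Under NRF, Dbp dropped from 47.3 at ZT12 to 4.64 ± 2.22 at ZT16 and 1.22 ± 0.17 at ZT20. Under DRF, it went from 38.9 at ZT0 to 12.0 ± 3.42 at ZT4, 4.84 ± 0.46 at ZT8 and 2.47 ± 0.55 at ZT12. The rise was steep under NRF, from 1.92 ± 0.86 at ZT4 to 43.0 ± 10.5 at ZT8, and took more than 1 interval under DRF, from 2.12 at ZT16 through 15.3 ± 4.05 at ZT20 to 30.6 ± 5.13 at ZT24.

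Tef (ENSMUSG00000022389), for which both promoters shown above hold an E-box, lies at chr15:81802421-81826863 on the plus strand with 10 annotated transcripts over 7867 bases of exon. Under NRF, its 4 livers at ZT12 held 86.2, 89.5, 127 and 99.5 scaled counts against 15.7, 11.6, 9.61 and 8.04 at ZT0. The mean was 100.5 ± 18.3 at ZT12 and 11.2 ± 3.30 at ZT0, which is an 8.96-fold swing. Under DRF, the livers at ZT0 held 79.98, 82.6, 72.4 and 72.2 against 22.8, 22.3, 20.9 and 19.2 at ZT12. There the mean moved 3.61-fold, from 21.3 ± 1.60 at ZT12 to 76.8 ± 5.27 at ZT0. As with Dbp, the trough under DRF stood above that under NRF with no overlap between livers. The coefficient of variation of Tef over the 7 times ran from 5.95% to 12.1% under DRF and from 9.45% to 49.4% under NRF. The widest NRF group was ZT24, where the 4 livers held 18.6, 15.1, 8.16 and 5.96 scaled counts.

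Hlf (ENSMUSG00000003949), whose product is also known from a leukaemic fusion protein, lies at chr11:90336536-90390895 on the minus strand with 6 annotated transcripts over 6681 bases of exon. It had the shallowest swing of the 4. Under DRF, the livers at ZT0 held 56.5, 62.7, 55.2 and 57.4 scaled counts against 22.6, 21.2, 19.1 and 20.7 at ZT16, so the mean moved 2.77-fold, from 20.9 ± 1.44 to 57.9 ± 3.28. Under NRF, the livers at ZT12 held 64.1, 57.7, 38.3 and 73.0 against 22.8, 27.4, 21.3 and 20.1 at ZT24, so the mean moved 2.54-fold, from 22.9 ± 3.22 to 58.3 ± 14.7. Peaks and troughs of the regimens thus lay within the spread of the livers. Single livers stood apart under NRF. Replicate 3 held 38.6 scaled counts at ZT0 where the other 3 livers held 21.6 to 23.6, and 35.2 at ZT8 where the others held 53.5 to 55.3. Under DRF the widest group was ZT24, with 37.1, 56.8, 73.0 and 37.2 scaled counts.

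Nfil3 (ENSMUSG00000056749), the repressor, lies at chr13:52967209-52981073 on the minus strand with 1 annotated transcript over 2026 bases of exon. Its day ran opposite to that of the activators. Under NRF, the livers at ZT0 held 63.6, 70.6, 62.4 and 68.0 scaled counts against 12.7, 9.91, 12.2 and 11.7 at ZT8, a 5.68-fold swing of the mean from 11.6 ± 1.23 to 66.1 ± 3.83. Under DRF, the livers at ZT16 held 67.6, 52.0, 44.8 and 48.2 against 11.8, 8.24, 8.96 and 11.6 at ZT0, a 5.24-fold swing from 10.1 ± 1.797 to 53.2 ± 10.1. The depth of the swing was close between regimens, unlike that of Dbp and Tef. The curve under DRF was a plateau, with 42.9 ± 3.42 at ZT8, 47.8 ± 7.10 at ZT12 and 53.2 at ZT16, followed by a drop to 19.0 ± 7.24 at ZT20. In that last group the livers ranged from 13.4 to 29.0, the widest spread relative to the mean of any Nfil3 group.

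**Figure D1:**
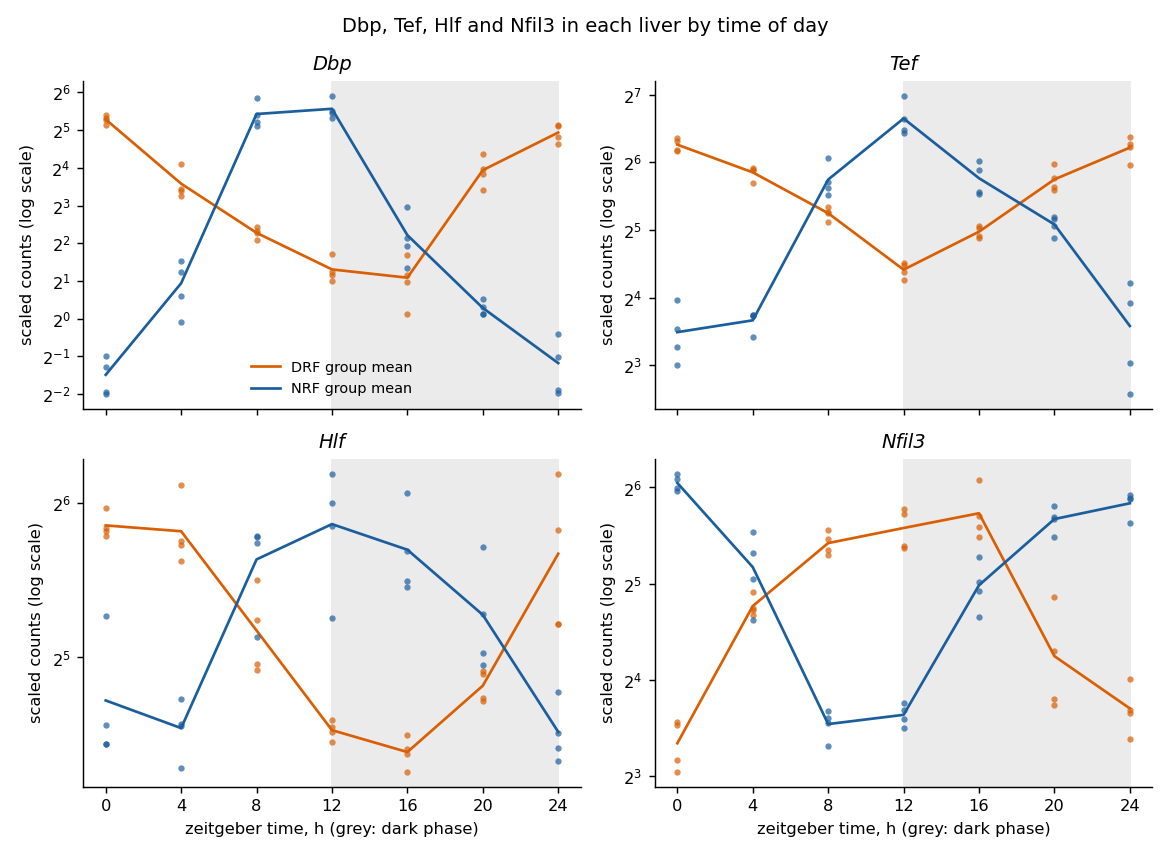
Scaled counts of Dbp, Tef, Hlf and Nfil3 (vertical axis) against zeitgeber time in h (horizontal axis); points are single livers and lines join the means of 4 livers under DRF and NRF. The curves of the regimens run opposite to each other in each of the 4 panels, and the Dbp and Tef troughs lie lower under NRF.

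Per kb of exon, the order of the levels was set by the time of day. Averaged over the 7 times, Nfil3 stood highest with 15.0 scaled counts per kb under DRF and 18.8 under NRF. Tef had 6.42 and 5.05, Hlf 5.85 and 5.80, and Dbp 5.07 and 4.72, in the same order of regimens. These averages count the hour of ZT0 and ZT24 in 2 groups, which is near the trough of Nfil3 under DRF and near its peak under NRF. The means of the cosine fits were close for Nfil3, at 33.4 and 34.5 scaled counts, and for Tef, at 46.8 and 45.2. At its best time Dbp rose above Tef and Hlf: under NRF at ZT12 it had 15.8 ± 2.92 per kb, Tef 12.8 ± 2.33 and Hlf 8.72 ± 2.20. The Dbp and Tef levels there lay within each other's spread. Exon length here covers all annotated transcripts of a gene together, so levels compared between genes depend on it. At its low point under NRF, at ZT0, Dbp had 0.119 ± 0.041 per kb where Tef had 1.43 ± 0.42 and Hlf 3.95 ± 1.22.

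The first question was whether each gene kept a diurnal rhythm on each regimen. A 24-h cosine and sine were fitted to log2(scaled count + 1) with limma over all genes, and p-values were adjusted by Benjamini-Hochberg over the 25041 genes. All 4 genes were rhythmic under DRF, where 34.2% of all genes passed, and all 4 were rhythmic under NRF, where 42.7% passed. For Dbp the fitted log2 amplitude was 1.78 under DRF (adjusted p = 1.7e-13) and 2.69 under NRF (adjusted p = 3.5e-20). Tef had 0.82 (adjusted p = 7.9e-11) and 1.53 (adjusted p = 2.0e-20), and Nfil3 had 1.07 (adjusted p = 9.1e-14) and 1.23 (adjusted p = 3.8e-16). Hlf was the only one of the 4 with a smaller fitted log2 amplitude under NRF, 0.68 (adjusted p = 1.8e-10), than under DRF, 0.76 (adjusted p = 5.1e-11). An exact Kendall rank test against reference curves, which assumes no error model, also called all 4 genes on both regimens, with 31.7% and 33.3% of all genes called.

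The second question was how far the rhythm moved. The 24-h rhythm differed between regimens in all 4 genes, against 38.1% of all genes (limma, largest adjusted p of the 4 = 6.4e-16, for Hlf). Across the processing settings the share of the genes tested ran from 34% to 56.9%. Peak times were read from a cosine fitted to scaled counts. Dbp peaked at ZT 23.96 ± 0.61 (SE) under DRF and ZT 10.2 ± 0.40 under NRF, Tef at ZT 0.45 ± 0.42 and ZT 12.6 ± 0.29, Hlf at ZT 2.58 ± 0.45 and ZT 13.1 ± 0.52, and Nfil3 at ZT 12.1 ± 0.36 and ZT 22.5 ± 0.28. Each gene therefore peaked near lights on under one regimen and near lights off under the other. The shift between regimens, counted around the clock, was 10.2 h for Dbp (95% interval 8.73 to 11.7), 11.8 h for Tef (10.8 to 12.8), 10.5 h for Hlf (9.12 to 11.9) and 10.4 h for Nfil3 (9.50 to 11.3). All 4 shifts passed the test of a phase difference, with the adjusted p between 4.1e-26 and 9.1e-18, as did 83.5% of the 5678 genes that were rhythmic in both regimens. The interval of Tef took in a full inversion of 12 h, and those of Dbp, Hlf and Nfil3 ended below it. These intervals rest on a single cosine fitted to scaled counts. In the exact rank test the reference curves were 2 h apart. There Dbp and Tef peaked at ZT0 under DRF and ZT12 under NRF, Hlf at ZT2 and ZT14, and Nfil3 at ZT12 and ZT22. A shift short of 12 h in Dbp and Hlf thus depended on the method. Among the 5678 genes, the median shift was 8.14 h, 51.2% shifted by 8 to 12 h and 23.97% by up to 4 h.

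**Figure D2:**
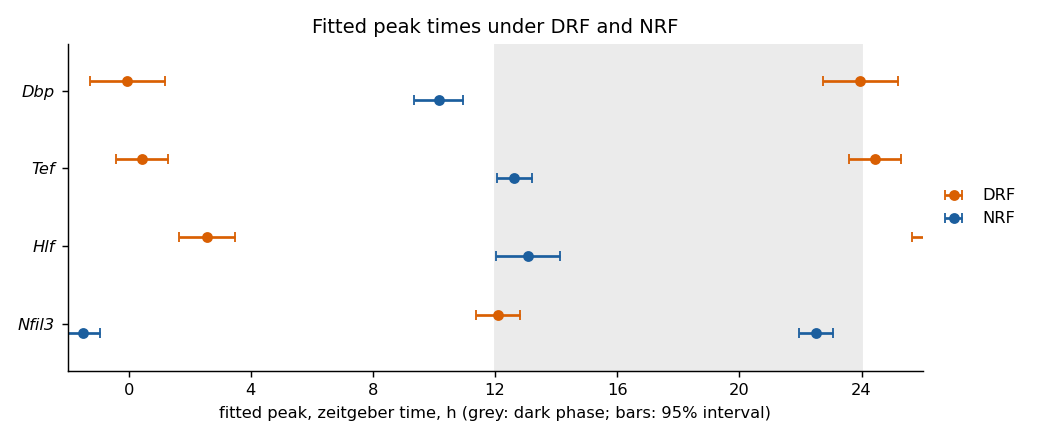
Fitted peak time of each gene (horizontal axis, zeitgeber time in h) under DRF and NRF, with bars for the 95% interval of the cosine fit; a peak near midnight of the cycle is drawn at both edges. Dbp, Tef and Hlf peak from ZT 23.96 to ZT 2.58 under DRF and from ZT 10.2 to ZT 13.1 under NRF, and Nfil3 peaks opposite to them in both.

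At fixed times of day the regimens lay far apart when feeding switched on or off. At ZT0 all 4 genes differed between regimens, where 15.7% of all genes did, 7.72% higher and 7.95% lower under DRF. Dbp was 109-fold higher under DRF in mean scaled count, with a log2(scaled count + 1) difference of 4.88 ± 0.21 (SE, limma adjusted p = 1.7e-21). Tef was 6.85-fold higher (2.71 ± 0.18, adjusted p = 2.8e-15), Hlf 2.20-fold higher (1.15 ± 0.19, adjusted p = 1.3e-05) and Nfil3 6.52-fold lower (-2.60 ± 0.16, adjusted p = 3.6e-16). At ZT12 the signs were turned around in all 4, where 14.9% of all genes differed, 6.86% higher and 8.01% lower. Dbp was 19.1-fold lower under DRF (-3.79 ± 0.21, adjusted p = 9.6e-18), Tef 4.72-fold lower (-2.17 ± 0.18, adjusted p = 1.9e-12), Hlf 2.52-fold lower (-1.26 ± 0.19, adjusted p = 2.5e-06) and Nfil3 3.84-fold higher (1.85 ± 0.16, adjusted p = 9.6e-12). The split of all called genes is not stable, since 65.9% of those called at ZT0 and 62.1% of those at ZT12 were higher when the deposited values were tested, against 49.3% and 46.1% here.

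Between these hours the genes changed sides at different times. At ZT4, where 19.9% of all genes differed, Dbp was still 6.23-fold higher under DRF, Tef 4.56-fold and Hlf 2.42-fold, and all 3 passed. Nfil3 did not pass there, with -0.36 ± 0.16 on the log2 scale (adjusted p = 0.13), although it passed without replicate 4 of NRF at ZT4, the lowest of its group (adjusted p = 0.023). At ZT8, where 12.6% differed, Dbp had turned to 8.87-fold lower and Nfil3 to 3.69-fold higher, and both passed. Tef (-0.47 ± 0.18, adjusted p = 0.082) and Hlf (-0.45 ± 0.19, adjusted p = 0.13) were then near their crossing points. Hlf passed at ZT8 without replicate 3 of NRF (adjusted p = 0.039), and Tef passed there without replicate 1 (adjusted p = 0.042) or replicate 4 (adjusted p = 0.036) of NRF at ZT24, through the shared estimate of the spread. At ZT16, where 14.7% differed, all 4 passed: Dbp was 2.19-fold lower under DRF, Tef 1.73-fold and Hlf 2.48-fold lower, and Nfil3 1.68-fold higher. The Dbp groups overlapped at ZT16, and its call (adjusted p = 0.0057) was lost without replicate 1 of DRF at that time (adjusted p = 0.050) or replicate 3 of NRF (adjusted p = 0.070). At ZT20, where 13.5% differed, Dbp was back to 12.6-fold higher, Tef to 1.59-fold higher and Nfil3 to 2.69-fold lower. The Tef call (adjusted p = 0.011) was lost on the deposited values (adjusted p = 0.091). Hlf lagged behind, still lower under DRF at ZT20 but short of the threshold (-0.42 ± 0.19, adjusted p = 0.16). At ZT24, where 13.7% differed, all 4 passed again in the directions seen at ZT0, with Dbp 69.1-fold, Tef 6.23-fold and Hlf 2.23-fold higher and Nfil3 4.38-fold lower.

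The samples at ZT24 and ZT0 stand for the same hour on consecutive days and allow a check of the cycle. None of the 4 genes differed between them by limma, where 3.21% of all genes did under DRF and 8.01% under NRF. At an unadjusted p below 0.05, 1 of the 4 passed under DRF, Nfil3 with 0.33 ± 0.16 on the log2 scale (adjusted p = 0.29), and 0 passed under NRF. The largest of the other differences under DRF was that of Dbp, at -0.35 ± 0.21 (adjusted p = 0.43), and its livers did not overlap: 35.2 to 42.1 scaled counts at ZT0 and 24.6 to 35.0 at ZT24. Under NRF, Nfil3 was the gene whose livers did not overlap. They held 62.4 to 70.6 scaled counts at ZT0 and 49.7 to 60.6 at ZT24 (-0.21 ± 0.16, limma adjusted p = 0.55).

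The third question was whether inverted feeding gave a mirror image, which was asked by setting livers side by side at the same number of h after food was given. If the rhythm had followed food alone, DRF at ZT0 would equal NRF at ZT12, and so on round the day. At the onset of food (DRF ZT0 against NRF ZT12), 0 of the 4 genes differed by limma, where 2.44% of all genes did. Leaving out 1 liver moved the 611 genes called to between 313 and 1258, and with DRF ZT24 in place of ZT0, the same hour of the day, 7.89% of all genes and again 0 of the 4 passed, with 2 of the 4, Dbp and Tef, at an unadjusted p below 0.05. With DRF ZT0, Tef alone passed at an unadjusted p below 0.05, at -0.37 ± 0.18 (adjusted p = 0.35). At 4 h of food (DRF ZT4 against NRF ZT16), where 14.3% of all genes differed, Dbp was 2.58-fold higher under DRF (1.24 ± 0.21, adjusted p = 0.00012) and the other 3 did not pass. At 8 h (DRF ZT8 against NRF ZT20), where 11.4% differed, again Dbp alone passed, 3.97-fold higher (1.40 ± 0.21, adjusted p = 3.8e-05).

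At the end of food (DRF ZT12 against NRF ZT24), where 1.47% of all genes differed, 2 of the 4 did. That share is loose: leaving out 1 liver moved the 368 genes called to between 166 and 436, and with NRF ZT0 in place of ZT24, the same hour of the day, 9.7% of all genes differed. The same 2 members passed with NRF ZT0. Dbp was 5.59-fold higher under DRF (1.27 ± 0.21, adjusted p = 0.00056) and Tef 1.78-fold higher (0.90 ± 0.18, adjusted p = 0.0037). The Tef call was lost without replicate 4 of NRF at ZT24, the lowest of its group (adjusted p = 0.059). At 4 h after food was taken away (DRF ZT16 against NRF ZT4), where 16.5% differed, Tef was 2.48-fold higher (1.25 ± 0.18, adjusted p = 4.6e-06) and Nfil3 1.47-fold higher (0.57 ± 0.16, adjusted p = 0.013). The Nfil3 groups overlapped there, and the call was lost without replicate 1 of DRF at ZT16 (adjusted p = 0.081) or replicate 4 of NRF at ZT4 (adjusted p = 0.11). At 8 h without food (DRF ZT20 against NRF ZT8), where 16% of all genes differed, 3 of the 4 did. Dbp was 2.81-fold lower under DRF (-1.44 ± 0.21, adjusted p = 5.5e-06), Hlf 1.76-fold lower (-0.78 ± 0.19, adjusted p = 0.0032) and Nfil3 1.63-fold higher (0.60 ± 0.16, adjusted p = 0.0083). Tef, at 0.01 ± 0.18, did not pass. The Dbp and Hlf calls were lost on the deposited values (adjusted p = 0.17 and 0.060), and that of Nfil3 was lost without replicate 2 of DRF at ZT20 (adjusted p = 0.10), the highest of its group. Of the 6 matched hours, Dbp passed at 4, Tef and Nfil3 at 2 and Hlf at 1.

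**Figure D3:**
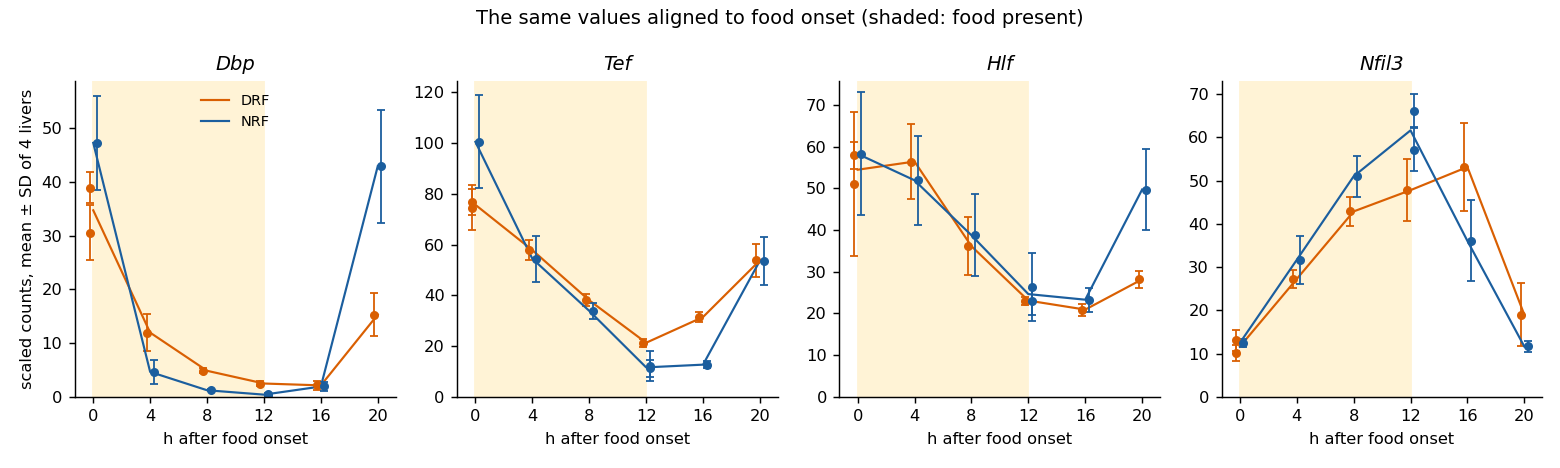
Scaled counts (vertical axis; mean ± SD of 4 livers) against h after food was given (horizontal axis), with the DRF and NRF points nudged sideways; ZT0 and ZT24 of a regimen stand at the same hour. Dbp under DRF lies above NRF from 4 to 12 h after food was given, and the Hlf curves lie close to each other except at 20 h.

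A single test over all times asked whether the NRF cosine, turned by 12 h, would describe DRF. It was refused for 33.5% of all genes and for 3 of the 4. Across the processing settings the share of the genes tested ran from 33.2% to 56.1%. The departure, as a log2 amplitude, was 1.36 for Dbp (limma adjusted p = 1.3e-05), 0.73 for Tef (adjusted p = 1.0e-05) and 0.47 for Nfil3 (adjusted p = 0.016). It was 0.28 for Hlf, which did not pass (adjusted p = 0.11) but passed without replicate 3 of NRF at ZT20 (adjusted p = 0.042) or with a correction for exon length (adjusted p = 0.042). The departure can come from the phase, from the amplitude or from both. In scaled counts, the fitted amplitude of Tef was smaller under DRF, 26.2 against 38.8, a difference of -12.6 ± 3.65 (adjusted p = 0.017), where 10.3% of the 5678 genes differed. Dbp had 16.1 against 24.3 (-8.18 ± 3.27, adjusted p = 0.10) and Nfil3 20.7 against 26.5 (-5.79 ± 2.45, adjusted p = 0.13). Neither passed, and the 95% intervals of their differences were -14.8 to -1.62 and -10.7 to -0.88 before adjustment. Without replicate 1 of DRF at ZT16, the highest of its group, the Nfil3 amplitude passed (adjusted p = 0.028). That of Dbp passed when the cosine was fitted to log2(scaled count + 1) in place of scaled counts (adjusted p = 0.0021). The Hlf amplitudes were 20.1 and 18.2, with a difference of 1.85 ± 3.22 and a 95% interval of -4.62 to 8.32.

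The daily mean on the log2 scale differed between regimens in 1 of the 4 genes. Of all genes 6.18% differed, 3.7% higher and 2.48% lower under DRF. Tef was higher under DRF by 0.35 ± 0.085 on the log2 scale (limma adjusted p = 0.0064). Dbp had 0.37 ± 0.15 (adjusted p = 0.15), Hlf -0.16 ± 0.07 (adjusted p = 0.21) and Nfil3 0.01 ± 0.09 (adjusted p = 0.98). Dbp passed with a pseudocount of 0.1, which gives its low values more weight (0.70 on the log2 scale, adjusted p = 0.0051). In scaled counts the means of the cosine fits were 46.8 under DRF and 45.2 under NRF for Tef. For Dbp they were 12.9 and 17.2, lower under DRF, so the sign of its difference depended on the scale. Differences of these linear means were not tested.

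The fitted peaks fell in the order Dbp, Tef, Hlf and Nfil3 under both regimens, but neighbouring activators were not always resolved. On the deposited values the Tef peak came before that of Dbp under DRF (a gap of -0.32 h). The gap from Dbp to Tef was 0.49 h under DRF (95% interval -0.53 to 1.51) and 2.47 h under NRF (1.75 to 3.20), and the difference of these gaps, -1.98 h, had a 95% interval of -3.23 to -0.73. So Dbp and Tef peaks could not be told apart under DRF but could under NRF. The gap from Tef to Hlf was 2.13 h (0.83 to 3.43) under DRF and 0.46 h (-0.78 to 1.69) under NRF, with a difference of 1.67 h whose interval of -0.12 to 3.46 took in 0. That difference left 0 outside its interval on log2 values (1.94 h, 0.50 to 3.37) and on the deposited values (1.62 h, 0.20 to 3.04). Tef thus sat close to Dbp under DRF and close to Hlf under NRF. The outer gap, from Dbp to Hlf, was 2.62 h and 2.93 h, and the interval of its difference, -2.15 to 1.53, also took in 0, though on the deposited values it did not (-1.33 h, -2.62 to -0.046). From Hlf to Nfil3 the gap was 9.53 h and 9.43 h, which differed by 0.10 h (-1.55 to 1.75) here and by 1.999 h (0.58 to 3.42) on the deposited values. From Nfil3 back to Dbp the gap was 11.8 h and 11.6 h. Dbp and Nfil3 therefore stood close to 12 h apart on both regimens, whereas the gap from Tef to Nfil3 measured 11.7 h on DRF but 9.89 h on NRF, with a difference of 1.78 h (0.43 to 3.12). These intervals treat the genes as measured in the same livers and were not adjusted over the gaps compared.

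The shape of the curve was examined through a 12-h component added to the 24-h cosine. It passed for Dbp (log2 amplitude 0.50, limma adjusted p = 0.00033) and Nfil3 (0.39, adjusted p = 0.00041) under DRF, where 4.75% of all genes passed. Under NRF it passed for Dbp (0.82, adjusted p = 7.3e-08) and Tef (0.38, adjusted p = 0.0061), where 1.97% passed. Hlf passed on neither regimen (adjusted p = 0.80 and 0.42), and Tef did not pass under DRF (adjusted p = 0.82). For none of the 4 did the 12-h component itself differ between regimens (smallest adjusted p = 0.22, for Dbp), and a pass on one regimen alone is not shown to be particular to it. Nfil3 also passed under NRF without replicate 4 at ZT4 (adjusted p = 0.033), and the Dbp component under DRF was lost on the deposited values (adjusted p = 0.17).

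Because activators and repressor compete for the same element, the summed level of Dbp, Tef and Hlf per kb was set against that of Nfil3 in each liver. Under DRF the log2 ratio was 2.39, 3.06, 2.80 and 2.42 in the livers at ZT0 and fell to -1.49, -1.56, -1.85 and -2.08 at ZT12. Under NRF it was -2.46, -2.85, -2.12 and -2.95 at ZT0 and 2.59, 2.66, 2.65 and 2.52 at ZT12. The sum passed from above Nfil3 to below it between ZT4 (mean 0.55 ± 0.25) and ZT8 (-0.84 ± 0.21) under DRF. Under NRF it did so around ZT16, where the mean was 0.06 ± 0.37 with 3 of 4 livers above 0. The activators were in excess in all livers at ZT0, ZT4, ZT20 and ZT24 under DRF, and in all livers at ZT8 and ZT12 under NRF. By this measure excess covered 4 sampled times of 7 on daytime food and 2 of 7 on nighttime food, with the ZT16 group mixed. ZT0 and ZT24 are the same hour of the day. The level of 0 rests on exon lengths of all annotated transcripts together, 7867 bases for Tef and 2993 for Dbp. The coding transcripts Tef-201 and Dbp-201 have 4079 and 1837 bases, and Nfil3 has 1 transcript of 2026. Shorter lengths for the activators would raise the ratio, so the times of crossing and the counts of excess hold only for these lengths. The ratio is of transcripts and says nothing of the amounts of protein.

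**Figure D4:**
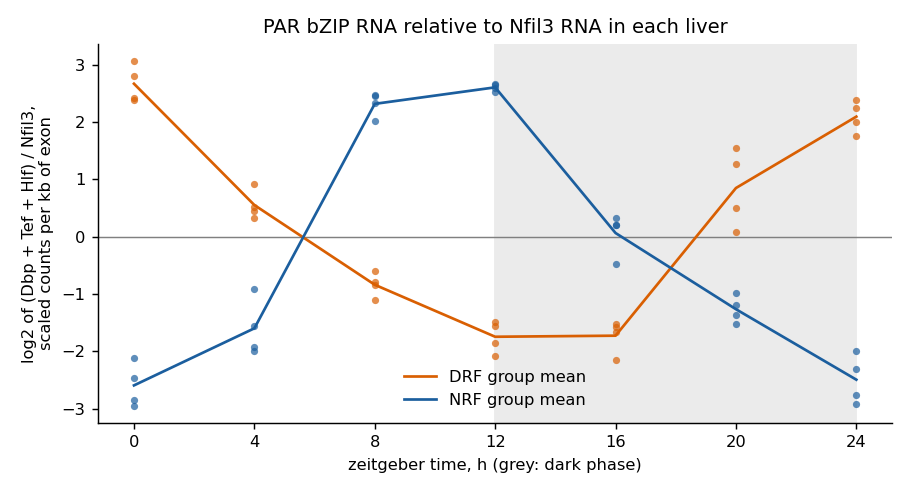
Log2 ratio of the summed Dbp, Tef and Hlf level to the Nfil3 level, both per kb of exon (vertical axis), against zeitgeber time in h (horizontal axis); points are single livers, lines join group means and 0 marks equal levels. Under DRF the ratio is above 0 at ZT0, ZT4, ZT20 and ZT24, and under NRF it lies above 0 at ZT8 and ZT12 and near 0 at ZT16.

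Transcripts of the 4 genes were given as deposited scores, which are compressed at high values and are therefore described without folds. Nfil3 has 1 transcript, which followed its gene. For Dbp, the full-length Dbp-201 had 50.8 ± 1.91 at ZT12 and 2.40 ± 1.09 at ZT0 under NRF, and 14.4 ± 2.28 and 48.2 ± 0.92 under DRF. Dbp-205 is annotated as a retained intron and has 785 bases of its own, or 45.3% of its length. It rose with the gene in both regimens, from 0.259 ± 0.224 at ZT0 to 23.5 ± 0.86 at ZT8 under NRF and from 2.99 ± 0.96 at ZT16 to 18.9 ± 0.61 at ZT0 under DRF. Under NRF its highest group was ZT8, whereas that of Dbp-201 was ZT12, with ZT8 close behind at 48.8 ± 4.05. Its fitted peaks were ZT 23.7 and ZT 10.02, and those of Dbp-201 were ZT 0.23 and ZT 10.5.

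For Tef, transcripts with separate starts peaked at close times. Tef-202 starts at base 81802421, just before the first window shown above, so that this window lies downstream of its start. It peaked at ZT 0.17 under DRF and ZT 13.04 under NRF in the cosine fit, and Tef-201, which starts at base 81811414, the start of the second promoter, peaked at ZT 0.04 and ZT 13.3. Tef-201 had the higher score, with a mean of 22.4 over all libraries against 7.62. Their group means moved from 14.9 ± 1.72 at ZT0 to 28.5 ± 2.15 at ZT12 for Tef-201 and from 3.11 ± 0.44 to 12.3 ± 1.40 for Tef-202 under NRF. The 2 transcripts share most of their exons, since 307 bases of Tef-201 and 451 of Tef-202 are found in no other Tef transcript.

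Hlf was the gene whose transcripts parted. The short coding transcript Hlf-206 had fitted peaks at ZT 12.9 under DRF and ZT 0.26 under NRF, opposite to the gene, but its livers scattered widely. Under DRF its 4 livers at ZT12 scored 57.4, 46.1, 33.4 and 32.7 against 2.82, 3.26, 1.01 and 3.07 at ZT0. Under NRF they scored 36.6, 25.2, 57.2 and 49.3 at ZT0 against 0.934, 2.11, 4.39 and 2.52 at ZT8. These are its highest and lowest groups, and other groups mixed high and low livers. Under NRF at ZT24, the same hour of the day as ZT0, the livers scored 6.87, 47.1, 5.99 and 12.0, and at ZT20 they scored 41.6, 58.2, 3.503 and 6.23. Under DRF at ZT20 they ran from 4.72 to 38.2. Hlf-206 is 619 bases long, of which 210 bases (33.9%) are its own, a stretch at chr11:90345548-90345757 on GRCm38.p6, and the rest of its length is shared with other Hlf transcripts. The longest coding transcript, Hlf-201, had group means from 15.3 ± 0.17 to 18.6 ± 0.73 under DRF and 13.9 ± 0.66 to 18.7 ± 1.08 under NRF, on the compressed scale. Hlf-203, a processed transcript, had single livers far from their group. Under NRF, replicate 3 scored 24.5 at ZT8 where the others scored 45.7 to 46.8, and 49.4 at ZT16 where the others scored 19.8 to 21.3. Under DRF at ZT24, replicate 3 scored 45.0 where the others scored 23.8 to 24.9. At each of these the replicate that stood apart for Hlf-203 was also the lowest or the highest for the gene. How reads were shared out among overlapping transcripts was not tested.

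The regulators upstream of the family, 15 genes of the core clock, were mostly turned around by the regimen. All 15 were rhythmic under DRF (34.2% of all genes) and 14 under NRF (42.7%), and for 14 the rhythm differed between regimens (38.1%). Among genes with a mean of at least 1 scaled count, 54.1% and 60.7% were rhythmic. At ZT0, 9 were higher and 4 lower under DRF (7.72% and 7.95% of all genes). At ZT12, 4 were higher and 8 lower (6.86% and 8.01%). The median log2 difference was 0.57 and -0.57, against -0.0015 and -0.0018 for all genes tested. Of the 14 that were rhythmic in both regimens, 13 shifted by 8 to 12 h, with a median of 11.1 h. Of all 5678 such genes, 51.2% did. Arntl, which encodes BMAL1, had 6.77 ± 0.64 scaled counts under DRF and 74.4 ± 5.92 under NRF at ZT0, and peaked at ZT 12.1 and ZT 22.7, in the hours of Nfil3. Nr1d1, which encodes REV-ERBα, peaked at ZT 20.6 and ZT 7.48, ahead of Dbp on both regimens, and swung 7.05-fold under DRF and 150-fold under NRF. Its relative Nr1d2 was the only one of the 15 whose mean differed (6.18% of all genes), higher under DRF by 0.49 (limma adjusted p = 6.7e-05). The exact 12-h inversion was refused for 13 of the 15, and for 33.5% of all genes. Clock shifted least of the 14, by -7.46 h (DRF minus NRF). Rora, which encodes a ROR receptor, was the one not called rhythmic under NRF (adjusted p = 0.33), where it swung 1.25-fold, and its rhythm did not pass the test of a difference (adjusted p = 0.086).

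Clock genes with known D-boxes made a second list of 7. All 7 are also in the first list, so their counts repeat part of it. All 7 were rhythmic under DRF (34.2% of all genes) and 6 under NRF (42.7%). The 6 rhythmic in both shifted by 10.5 to 11.9 h. Of all 5678 such genes, 51.2% shifted by 8 to 12 h. At ZT0, 5 were higher and 1 lower under DRF (7.72% and 7.95% of all genes), with a median log2 difference of 2.62. At ZT12, 1 was higher and 5 lower (6.86% and 8.01%), with a median of -1.61. Per3 had 45.9 ± 1.77 scaled counts under DRF and 3.04 ± 1.01 under NRF at ZT0, and 6.50 ± 1.63 and 56.6 ± 6.08 at ZT12. Its peaks, ZT 1.37 and ZT 12.5, lay close to those of Tef. Per1 peaked at ZT 0.65 and ZT 12.6, Nr1d2 at ZT 21.6 and ZT 10.6, and Cry1 at ZT 9.02 and ZT 19.5, earlier than Nfil3 on both regimens. The mean differed in 1 of the 7, Nr1d2 (6.18% of all genes), and the exact inversion was refused for all 7 (33.5%).

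Genes of metabolism known as targets of the family formed a list of 22, of which 17 could be tested. Cyp2b9, Cyp2b13, Cyp2c29, Cyp2c50 and Cyp3a11 were not tested. Of the 17, 15 were rhythmic under each regimen, where 34.2% of all genes were under DRF and 42.7% under NRF. Among genes with a mean of at least 1 scaled count, 54.1% and 60.7% were rhythmic. The rhythm differed in 16 of the 17 targets (38.1% of all genes), and the exact inversion was refused for 11 (33.5%). Across the processing settings these last 2 shares of the genes tested reached 56.9% and 56.1%. At ZT0, 11 were higher and 1 lower under DRF (7.72% and 7.95% of all genes), with a median log2 difference of 0.90. At ZT12, 2 were higher and 9 lower (6.86% and 8.01%), with a median of -0.68. Most followed the activators. Por, the electron donor of the microsomal cytochromes P450, had 205 ± 6.55 scaled counts under DRF and 63.3 ± 5.13 under NRF at ZT0, and 73.2 ± 7.00 and 242 ± 10.6 at ZT12. Its peaks at ZT 0.41 and ZT 13.1 lay close to those of Tef. Ppara, a nuclear receptor of fatty acid catabolism, had 344 ± 16.3 and 144 ± 12.1 at ZT0, and Nr1i3, which encodes the xenobiotic receptor CAR, had 53.7 ± 4.12 and 28.5 ± 4.24. Alas1, the first enzyme of haem synthesis, was 2.31 ± 0.37 higher on the log2 scale at ZT0 (limma adjusted p = 7.1e-06). Pdxk, pyridoxal kinase, was 0.66 ± 0.10 higher at ZT0 (adjusted p = 1.8e-06) and 0.68 lower at ZT12 (-0.68 ± 0.10, adjusted p = 8.8e-07).

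Of the 14 targets rhythmic in both regimens, 10 shifted by 8 to 12 h, with a median over the 14 of 10.2 h. Of all 5678 such genes, 51.2% did, with a median of 8.14 h. Ddc, aromatic amino acid decarboxylase, was the 1 target lower under DRF at ZT0, with 48.9 ± 4.42 scaled counts against 196 ± 13.2, and its peaks at ZT 11.8 and ZT 22.4 were those of Nfil3. Cyp3a13 did not shift: it peaked at ZT 18.1 on both regimens. Cyp2b10, a target of CAR, shifted by -4.37 h (DRF minus NRF), and at ZT12 it had 378 ± 60.1 scaled counts under DRF and 43.5 ± 16.5 under NRF, on the side of Nfil3. Its log2 mean over the day was 1.19 higher under DRF (limma adjusted p = 7.7e-07), and that of 4 other targets was higher too. Cyp2a4 was lower (-0.86, adjusted p = 9.8e-09). Of all genes, 3.7% were higher and 2.48% lower. Cyp2a5, which shares long stretches with Cyp2a4, was 1.87 ± 0.26 higher at ZT0 (adjusted p = 5.8e-07). Values of Cyp2a4, Cyp2a5, Cyp2b10 and the Acot genes are uncertain as far as counts could be split among close copies. Cyp7a1, the rate-limiting enzyme of bile acid synthesis, passed at neither hour (0.50 ± 0.38 at ZT0, adjusted p = 0.48).

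Other bZIP factors, C/EBP proteins and relatives, were described as a last list. Of 17, all tested, 11 were rhythmic under DRF (34.2% of all genes) and 10 under NRF (42.7%), and 12 differed in rhythm (38.1%). The exact inversion was refused for 4 (33.5% of all genes). Among genes with a mean of at least 1 scaled count the share called rhythmic was higher, 54.1% and 60.7%. At ZT0, 8 were higher and 2 lower under DRF (7.72% and 7.95% of all genes), with a median log2 difference of 0.19. At ZT12, 1 was higher and 6 lower (6.86% and 8.01%), with a median of -0.11. Of the 9 rhythmic in both, 7 shifted by 8 to 12 h, as did 51.2% of all 5678 such genes. Cebpa, which keeps hepatocytes differentiated, swung only 1.48-fold and 1.59-fold with peaks at ZT 21.0 and ZT 10.1. Cebpb peaked at ZT 3.20 and ZT 11.2. Atf5 ran on the side of Nfil3, with 54.1 ± 6.33 and 101 ± 13.6 at ZT0. Xbp1 was the only one whose mean differed (6.18% of all genes), lower under DRF by 0.21 (-0.21, limma adjusted p = 0.020).

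**Figure D5:**
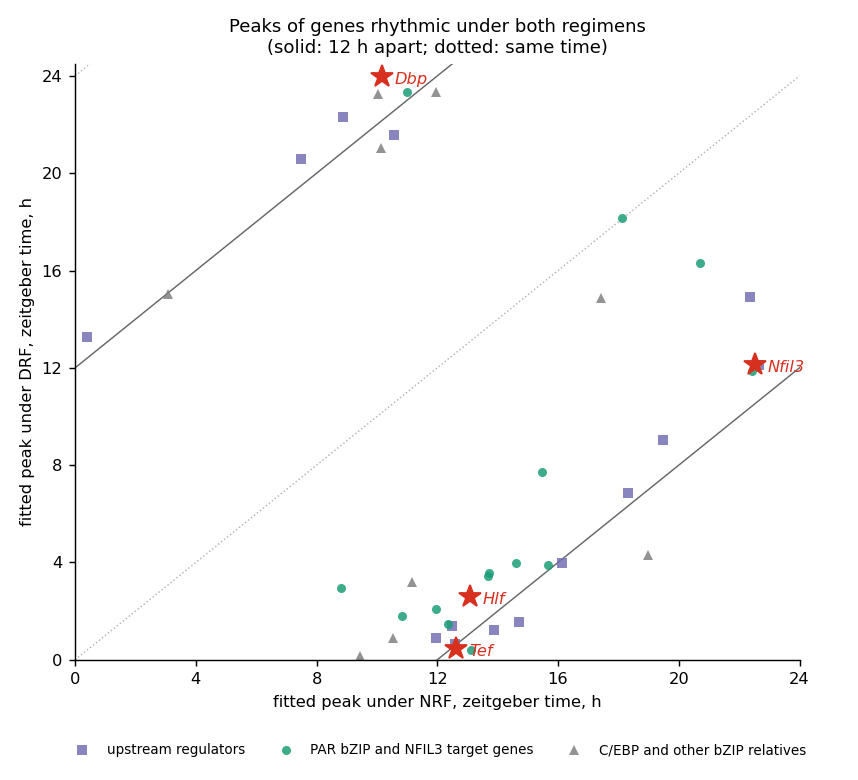
Fitted peak time under NRF (horizontal axis, ZT in h) against that under DRF (vertical axis, ZT in h) for genes of the upstream, target and bZIP-relative lists that were rhythmic in both regimens, with stars for Dbp, Tef, Hlf and Nfil3. Most upstream regulators lie near a 12-h shift, and Cyp3a13 among the targets shows none.

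Genes were then ranked by how closely their 14 group means followed those of each member, by Pearson's r of log2 means over the 13311 genes with a mean of at least 1 scaled count. The points share livers and times, and r is given as a description. Dbp was most like Ppara (r = 0.962), followed by Rnf19b, Gm14097, Slc6a16 and Rab43, and least like Chka (r = -0.976), which encodes choline kinase α. Tef was most like Per3 (0.964), with Xylb, Dym and Por also among its closest, and least like Rfxank (-0.954). Hlf was most like Slc12a7 (0.976), a potassium-chloride cotransporter gene whose log2 means spanned only 0.37, then the cell cycle kinase gene Wee1 (0.959), Cgnl1, Tnks1bp1 and Fam102a, and least like Pnp (-0.939). Nfil3 was most like Tubb2a (0.974), a tubulin gene, then Abtb2, Gm45355, Baiap2 and Chka, and least like Ppara (-0.964). So the gene most like Dbp was the one least like Nfil3. Chka, the gene least like Dbp, was among the 5 most like Nfil3. Both follow closely from the r of -0.97 between Dbp and Nfil3. Among the members themselves, r was -0.97 for Dbp and Nfil3, 0.88 for Dbp and Tef, 0.83 for Tef and Hlf, 0.77 for Dbp and Hlf, -0.81 for Tef and Nfil3 and -0.73 for Hlf and Nfil3.

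Exons of 2 members overlap another gene. The exons of Dbp share 539 bases (18.01%) with Sphk2, on the opposite strand, which peaked at ZT 17.6 under DRF and ZT 4.79 under NRF, away from the peaks of Dbp. Those of Tef share 193 bases (2.45%) with the antisense gene Gm17597, at a mean of 2.55 scaled counts, which peaked at ZT 1.66 and ZT 11.8, near Tef. Libraries were prepared with a strand-specific protocol, but the strand setting of the counting is not given in the sources used here.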

How the data were processed

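RNA-seq was measured in 56 livers, grouped by regimen and time from the labels, and 4 animals per group were treated as replicates. The submitters' processing notes name CASAVA 1.8, featureCounts 1.5.0-p3 and the builds mm10 and GRCm38.p6. The aligner is not given in the sources used here. The gene and transcript values deposited by the authors are named TPM but are not linear, so they are treated as a score: value times exon length followed a natural logarithm of 1 plus a multiple of a whole count. Inverting it gave the scaled counts for 25041 of 25415 genes. In genes held out of the calibration, 96.8% of values up to 20000 counts were within 0.05 of a whole number, and 107 genes that could not be rebuilt and 267 too deep to judge were left out. Transcript scores were used as deposited. The circular RNA table was not used.

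Log2(scaled count + 1) was fitted in limma 3.58.1 (R 4.3.3) with group means, or with 24-h cosine and sine terms, over all 56 libraries, and p-values were adjusted by Benjamini-Hochberg over all genes (threshold 0.05). Fold changes on this scale understate the change of low genes. The filter on low values (a mean deposited value of at least 0.1) removed 0 genes. Peak times and amplitudes came from cosine fits on scaled counts in genes rhythmic in both regimens. In simulated data, 200 genes were given a 24-h cosine on the log2 scale whose peak moved by 10 h between regimens. The phase difference was recovered in 93% to 99% of them and the difference at ZT0 in 67% to 80%, depending on the amplitude. Smaller shifts and curves other than a cosine were not simulated. The members and gene lists were chosen with earlier results of these data known. Named are the members, genes of the lists (examples picked after their values were seen), the 5 genes most and 2 least like each member, and genes whose exons overlap a member; some genes under this rule are not reported here. Replicate numbers do not pair livers: same-number deviations correlated at a median of 0.005, and 35 of 364 such pairs were over 0.1.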

Additional observations from a re-analysis of the deposited data

Results flagged for a closer look

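In 5 of the 56 groups of a gene, 1 liver lay further from the other 3 than Dixon's 95% limit for 4 samples allows, and chance gives about 1 in 20. Tef held 52.1 scaled counts in replicate 3 of DRF at ZT4 and 10.7 in replicate 3 of NRF at ZT4, both the lowest of their groups. Hlf held 38.6 in replicate 3 of NRF at ZT0, the highest of its group, and 35.2 in replicate 3 of NRF at ZT8, the lowest. Nfil3 held 49.7 in replicate 2 of NRF at ZT24, the lowest of its group. These livers come from separate animals, and what sets them apart was not tested.

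The effect of time of day differed between the regimens by a direct test in all 4 genes. The fitted phase differed by 10.2 h for Dbp, 11.8 h for Tef, 10.5 h for Hlf and 10.4 h for Nfil3, and the fitted amplitude of Tef by -12.6 scaled counts (DRF minus NRF).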

How the results depend on the processing

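Alternatives were median-of-ratios scaling, a correction for exon length, a pseudocount of 0.1, a stricter filter on low values, the deposited values themselves, the exact rank test, the replicate block and leaving out each liver in turn. Directions were compared only where a value passed in either setting, and phases around the clock. No tested result turned its direction, while the linear mean of Dbp, which was not tested, was lower under DRF. With the replicate block, 4 genes were rhythmic on each regimen and 3 departed from the inversion as before, and it changed no call of the 4 genes; 16 of 56 libraries correlated best with their own number. On the deposited values, the genes that differed between DRF ZT20 and NRF ZT8 went from 3 to 1, those between ZT24 and ZT0 under DRF from 0 to 1, and those with a 12-h component under DRF from 2 to 1. In the setting with the pseudocount of 0.1, peak times and amplitudes were fitted to log2(scaled count + 1). Genes whose amplitude differed went from 1 to 2 on the deposited values, on log2(scaled count + 1) or without the ZT0 groups. Genes whose mean differed went from 1 to 2 on the deposited values and with the pseudocount of 0.1. On the deposited values the gap from Dbp to Tef under DRF was -0.32 h, from Hlf to Nfil3 under NRF 7.998 h and from Nfil3 to Dbp under NRF 12.8 h; on log2 values the last gap was 12.3 h, and 12.7 h under DRF. The cause was not tested. Leaving out 1 liver, the count at DRF ZT12 against NRF ZT24 and at DRF ZT16 against NRF ZT4 lay between 1 and 2, and the count of amplitude differences between 1 and 2. Shares of all genes called moved across settings from 7.74% to 33.5% for ZT24 against ZT0 under NRF, from 3.21% to 18% under DRF, from 0.671% to 4.48% for the 12-h component under NRF and from 11.1% to 33.9% for DRF ZT8 against NRF ZT20. Precision is limited by 4 animals a group.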

Other observations

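Beyond the group means, single livers of a group were compared, an analysis chosen after seeing the data. Deviations from the group mean on the log2 scale were correlated over the 56 livers for the 6 pairs of genes, with 100000 permutations of livers within groups and Benjamini-Hochberg adjustment over the 6 pairs. Livers with more Dbp than their group tended to hold more Tef (Pearson r = 0.35, permutation p = 0.0057, adjusted p = 0.034; Spearman rho = 0.43, adjusted p = 0.028). It was 0.54 within DRF and 0.33 within NRF, and 0.42 without the 2 livers farthest from the median. The other 5 pairs did not pass. The closest was Tef with Nfil3 (permutation test, r = -0.21, adjusted p = 0.17; rho = -0.33, adjusted p = 0.053), followed by Dbp with Nfil3 (r = -0.30, adjusted p = 0.22).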
